A study of Populus tremula x Populus alba with 6 samples.

Results

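The transposable element (TE) loci described here are those listed after drought and rewatering in shoot apical meristems of poplar, in 2 ddm1 RNAi lines and in wild type (WT). They were chosen as every locus in any of the 3 tables of drought-rewatered libraries, and loci were matched by identical chromosome, start and end. This gave 189 loci of the 436 listed in all 6 libraries of the series. WT listed 115 of them, line 15 listed 79 and line 23 listed 44. All plants were clone 717-1B4 of the hybrid Populus tremula x Populus alba. The groups were WT, RNAi ddm1 line 15 and RNAi ddm1 line 23, each drought-stressed and then rewatered, and all 3 shared that treatment. The lines are separate transformants, and the values of each are given apart. The labels name neither the promoter of the RNAi construct, nor the number of plants per library, nor the severity of the drought. Each group had 1 library, so no spread within a group exists and no test was run.

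DDM1 is a SWI2/SNF2-type chromatin remodeller, known from Arabidopsis to be needed for DNA methylation and silencing of TEs in heterochromatin. LTR retrotransposons such as Gypsy and Copia copy themselves through RNA, and their linear DNA copies can be closed into circles that lack a chromosomal position. DNA transposons move by excision, and Helitrons by a rolling-circle mechanism. Mobilome-seq amplifies circular DNA, so a TE that makes circles can stand out in the reads. The assay reads DNA. It measures neither the level of the DDM1 transcript nor any gene that would mark a meristem, so neither label could be checked here.

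Each listed locus has a depth value, headed DOC in the tables, and a split-read value, headed SR. They are read here as depth of coverage and as reads crossing a junction, and both are whole numbers not scaled to library size. Whether the depth value counts reads over a locus or is already a depth per base is not stated, and the order of loci of unequal length depends on this. The lowest depth value was 4 in WT and 3 in each RNAi line, and the lowest split-read value was 3 in each library. At least 0.802 of each locus was covered. These are observed minima. No source used here states the rule by which the authors listed a locus, and a locus missing from a list is called unlisted and has no value. Reads from a repeat can match several near-identical copies, and how the authors placed such reads is likewise unstated, so values of near-identical copies are uncertain. Coordinates are those of the deposited tables, counted from 1, and the build is not stated in them. Where 3 values follow each other without names, their order is WT, line 15, line 23.

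Both RNAi lines listed fewer loci than WT. The 95% Poisson intervals were 94.9 to 138 around 115 loci, 62.5 to 98.5 around 79 and 32.0 to 59.1 around 44. The ratio to WT was 0.687 in line 15 (95% interval 0.509 to 0.923) and 0.383 in line 23 (0.264 to 0.546). These intervals cover counting error only and compare lists, not genotypes. Counting only loci with a depth value of at least 20, the lists held 60, 53 and 24 loci, and the ratios to WT were 0.883 in line 15 and 0.400 in line 23. The gap between line 15 and WT was thus mostly among loci of low depth. The summed depth value did not follow the number of loci, being 30529, 50114 and 22388. Sequencing depth per library was not analysed here, and its part in the number of loci was not tested.

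Most loci were listed in a single drought library. WT alone listed 83 loci, line 15 alone 46 and line 23 alone 21. Both RNAi lines and WT listed 10, and both RNAi lines without WT listed 7. The other overlaps with WT were 16 loci with line 15 and 6 loci with line 23. Line 15 thus shared 26 loci with WT, which was 32.9% of its own list and 22.6% of that of WT. Line 23 shared 16 with WT, 36.4% of its own list and 13.9% of the WT list. The RNAi lines shared 17 loci with each other, 21.5% of the line 15 list and 38.6% of the line 23 list. Family names overlapped more than positions did, which is largely built in. Each shared position brings a shared name, and the 115 WT loci had only 50 first names. Of 43 first names in line 15, 28 (65.1%) were also first names in WT, and of 29 in line 23, 21 (72.4%) were.

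**Figure D1:**
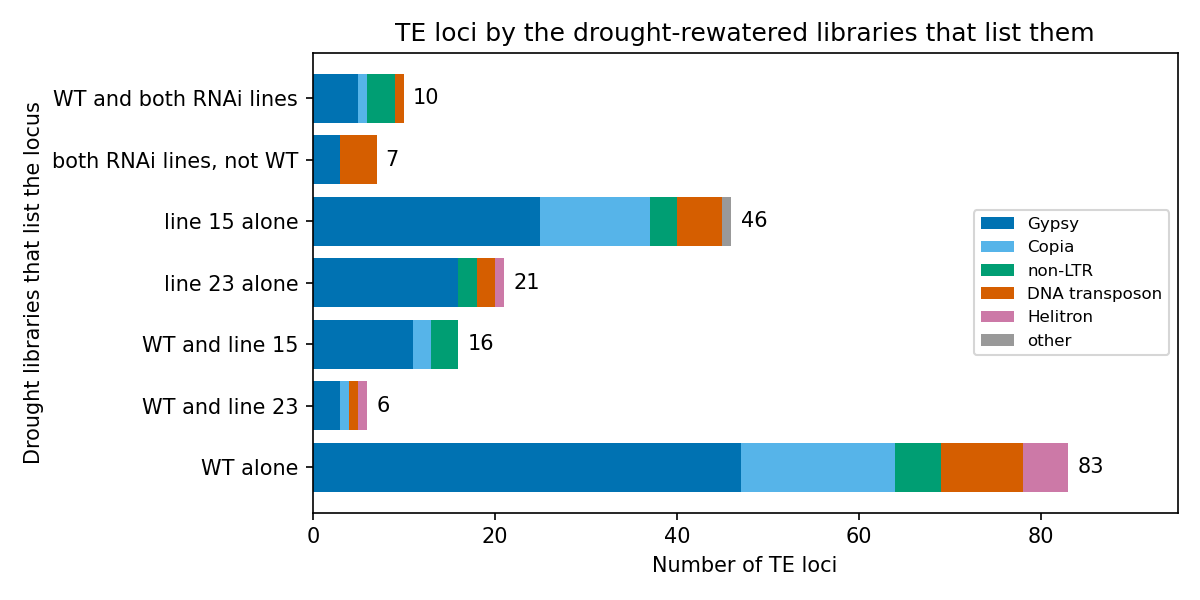
Number of TE loci (x axis) in each combination of the 3 drought-rewatered libraries (y axis), with bars stacked by TE class and totals at the bar ends. WT alone holds 83 loci, and the 7 loci of both RNAi lines without WT consist of 4 DNA transposons and 3 Gypsy elements.

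The 7 loci listed in both RNAi lines and not in WT had a median length of 300 bp. Their classes were DNA transposon, with 4 loci, and Gypsy, with 3. In the whole lists DNA transposons made up 12.7% in line 15 and 18.2% in line 23, and Gypsy loci 55.7% and 61.4%. Copia, LINE, SINE and Helitron loci were not among the 7. Line 15 listed 0 Helitrons, so none could be in both lists. Line 23 listed only 2 Copia, 1 LINE and 4 SINE loci. The median depth value of the 7 loci was 126 in line 15 and 256 in line 23, above the medians of the whole lists, 33 and 27.5.

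DNA-3 elements, grouped here by their name and classed here as DNA transposons, supplied 3 of the 7 loci, each with DNA-3-3_PTr as its first name. DNA-3-3_PTr on chromosome 3 (12264531 to 12264753, 223 bp) had a depth value of 6033 in line 15 and 1577 in line 23. Its split-read values ran the other way, 5 in line 15 and 4681 in line 23. In line 23 split reads covered the whole locus, a fraction of 1, and in line 15 a fraction of 0.525. So the copy with high depth in both lines had many junction reads in line 23 alone.

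DNA-3-3_PTr on chromosome 1 at 30005278 to 30005537 (260 bp) had a depth value of 46 in line 15 and 918 in line 23. The split-read value was 7 in line 15 and 568 in line 23. Here depth and split reads were high in the same library, line 23. DNA-3-3_PTr on chromosome 1 at 24681274 to 24681590 (317 bp) had 324 and 256 by depth in lines 15 and 23, with split-read values of 3 and 6. As deposited, the depth of that copy was close in the 2 lines, and it had almost no junction reads in either.

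EnSpm3_PT, a CACTA-type DNA transposon on chromosome 1 (23456719 to 23456835), had a depth of 18 in line 15 against 8 in line 23. Its split-read values were 20 and 6. Split reads covered all of it in line 15 and a fraction of 0.923 in line 23.

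The Gypsy loci among the 7 differed in which line was higher. Gypsy21-PTR_I-int on chromosome 1 (46571040 to 46571339), an internal part, had a depth value of 25 in line 15 and 397 in line 23. POPGY1_I-int on chromosome 19 (6885698 to 6886242) had 126 in line 15 and 63 in line 23, with split-read values of 6 and 4. Ogre-PT3_LTR on chromosome 19 (11283528 to 11284050), the LTR of a giant Gypsy lineage, had depths of 152 and 190 but split-read values of 44 and 486. As at the chromosome 3 DNA-3-3_PTr copy, the lines were closer in depth than in split reads, and line 23 had more of the latter.

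None of the 7 was confined to drought. Each was listed in at least 1 control-watered library, 6 of 7 in line 15 control, 3 in line 23 control and 3 in WT control. Those listed in WT control were EnSpm3_PT (depth value 6), the DNA-3-3_PTr copy at 30005278 (274) and Gypsy21-PTR_I-int (53). At the chromosome 3 DNA-3-3_PTr copy, line 15 had 38 under control watering against 6033 after drought. POPGY1_I-int had 72 in both RNAi control libraries, below its drought value in line 15 (126) and above that in line 23 (63).

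The 10 loci listed in all 3 drought libraries had a median length of 496 bp and median depth values of 174, 80 and 62.5, above the medians of the whole lists. They comprised 5 Gypsy loci, 3 non-LTR loci, 1 Copia and 1 CACTA element. All ratios below are log2 ratios of depth values as deposited, RNAi line over the same WT library. Dividing depth by the summed listed depth would shift each line 15 ratio by -0.72 and each line 23 ratio by 0.45. With the highest locus of each list left out of that sum, the shifts would be -1.71 and -0.062.

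The locus with the highest depth in each list was an 8194 bp Gypsy internal part, Gypsy-27_PTr-I-int (chromosome 13, 8689906 to 8698099), at 22796, 24823 and 14317. If the value is a read count, it was 278, 303 and 175 per 100 bp of locus. Its split-read value was 6 in all 3, covering fractions of 0.0105, 0.0100 and 0.0123 of the locus. The line 15 ratio of 0.12 turned below 0 when depth was divided by the summed listed depth. On that reading the chromosome 3 DNA-3-3_PTr copy lay above it, at 2705 per 100 bp in line 15 and 707 in line 23, while as deposited it lay below.

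Ogre-PT2_I-int, an internal part of the giant Gypsy lineage on chromosome 1 (41624029 to 41624889), had depths of 376, 228 and 1809. Its split-read values followed the same order, 273, 167 and 2110. The ratio to WT was -0.72 in line 15 and 2.27 in line 23, so line 15 was below WT and line 23 above it, also when depth was divided by the summed listed depth. A shorter Ogre-PT2_I-int copy on the same chromosome (17789768 to 17790313) had 62, 53 and 65, which are close together as deposited. Its log2 ratio of line 23 to line 15 was 0.29. Dividing depth by the summed listed depth would shift that ratio by 1.16, so the closeness depends on scaling.

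**Figure D2:**
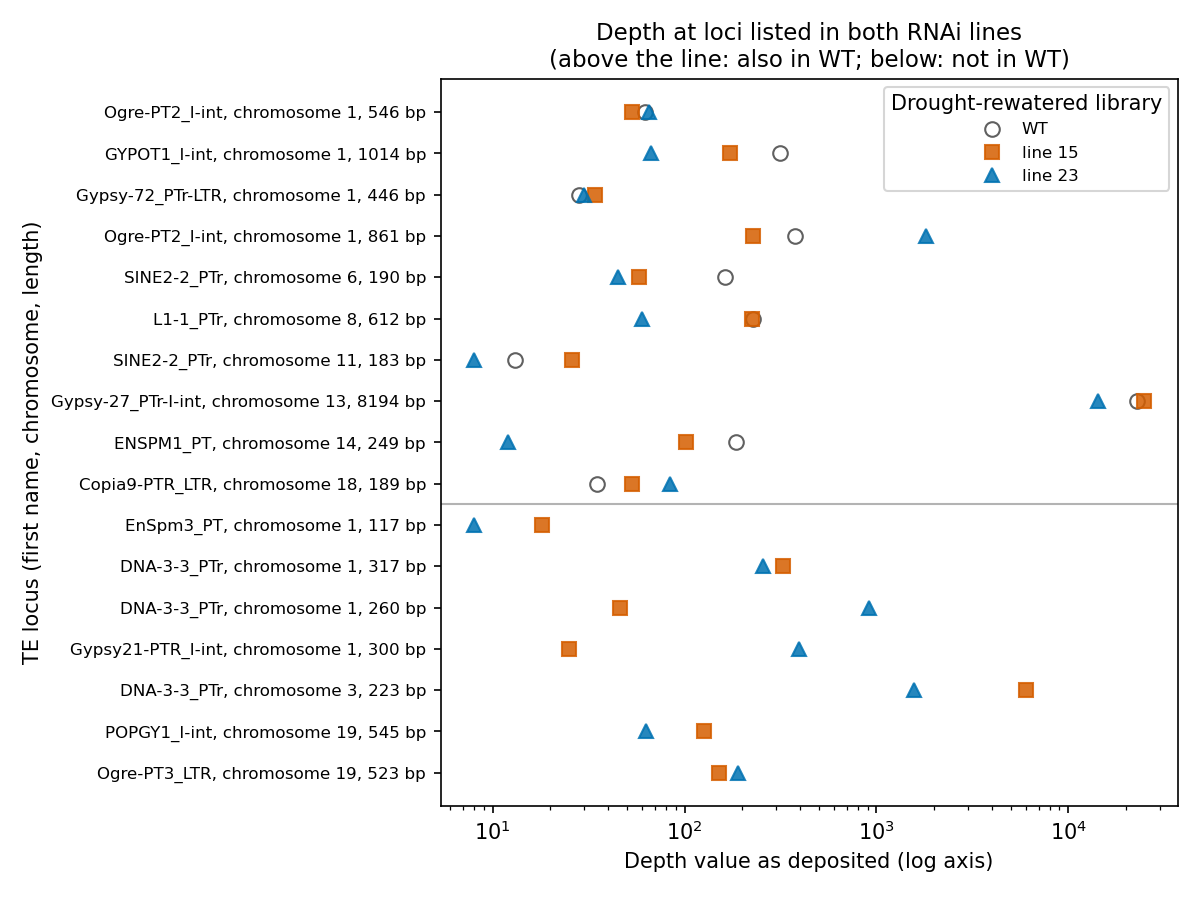
Depth value as deposited (x axis, log scale) of the 17 loci listed in both RNAi lines (y axis), with 1 point per drought-rewatered library and no point where a locus is unlisted. Line 23 is far to the right at the 861 bp Ogre-PT2_I-int locus (1809 against 376 in WT) and far to the left at ENSPM1_PT (12 against 186).

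The CACTA element ENSPM1_PT (chromosome 14, 4297763 to 4298011) had depths of 186, 102 and 12. GYPOT1_I-int, a Gypsy internal part on chromosome 1 (36180667 to 36181680), had 314, 172 and 67. L1-1_PTr, a LINE on chromosome 8 (15378192 to 15378803) that also carries a Gypsy name, had 226, 225 and 60. At these loci line 23 was lowest, with ratios to WT of -3.95, -2.23 and -1.91, while the line 15 ratios were -0.87, -0.87 and -0.0064.

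SINE2-2_PTr, a short non-autonomous element on chromosome 6 (2112611 to 2112800), had depths of 162, 58 and 45. Its split-read values were 34, 34 and 5. At a second SINE2-2_PTr copy on chromosome 11 (2332606 to 2332788) the depths were 13, 26 and 8. As deposited, the first copy was lower than WT in both lines and the other was higher than WT in line 15. The copies thus differed in the order of the libraries. The line 15 ratio of the chromosome 11 copy turned below 0 with depth divided by the summed listed depth without the highest locus.

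Copia9-PTR_LTR on chromosome 18 (7702141 to 7702329) had depths of 35, 53 and 84 and split-read values of 32, 15 and 58. Its line 15 ratio of 0.60 turned below 0 when depth was divided by the summed listed depth. Gypsy-72_PTr-LTR on chromosome 1 (38198036 to 38198481), which also carries Ogre and Helitron names, had 28, 34 and 30. Its line 15 ratio of 0.28 turned below 0 on the same division. The first was in no control-watered list, and the second was in all 3.

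Over all 26 loci shared by line 15 and WT, depth was lower in line 15 at 17 and higher at 9, with a median ratio of -0.30. At least 2-fold lower depth was seen at 6 loci (23.1%) and at least 2-fold higher depth at 1 (3.85%). In line 23 depth was lower than in WT at 11 of 16 shared loci and higher at 5, with a median of -0.71. There, 7 loci (43.8%) were at least 2-fold lower and 3 (18.8%) at least 2-fold higher. Both comparisons use the same WT library. The line 15 split depended on scaling: with depth divided by the summed listed depth, 13 loci were at least 2-fold lower, 0 higher, and the median was -1.01.

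**Figure D3:**
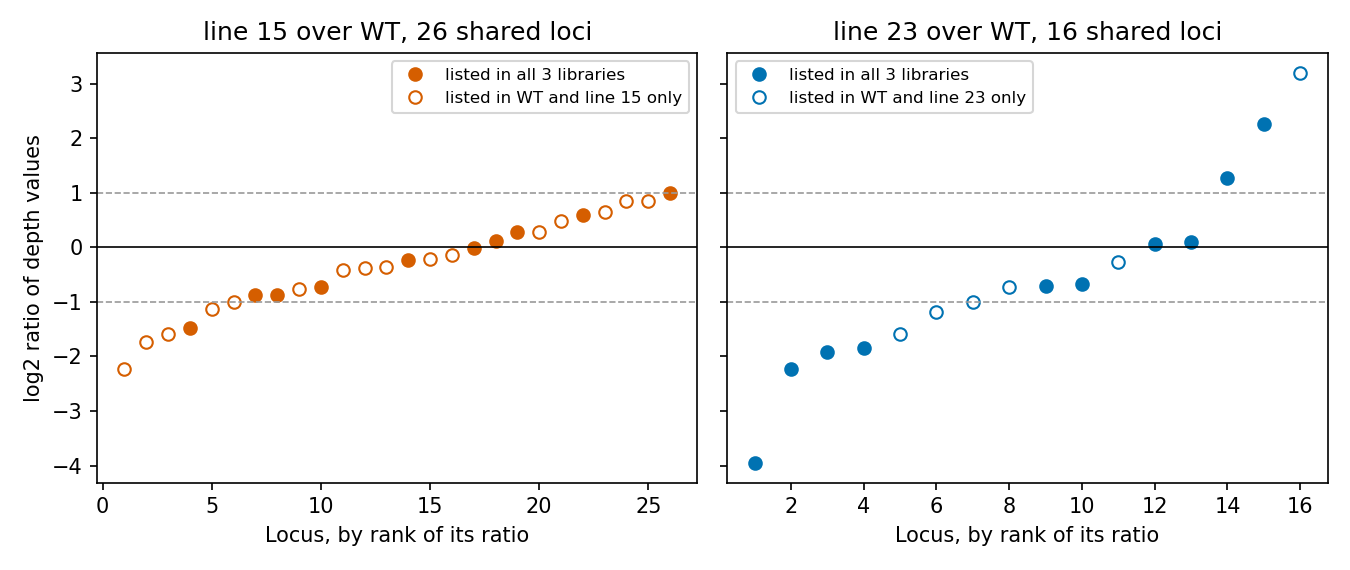
Log2 ratio of depth values as deposited (y axis) at each locus shared with WT, ordered by the ratio (x axis), for line 15 (left, 26 loci) and line 23 (right, 16 loci). Filled points are loci listed in all 3 drought libraries, open points are in WT and that line only, and dashed lines mark a 2-fold difference. Line 23 ratios span -3.95 to 3.20 and line 15 ratios -2.22 to 1.00.

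Among loci of WT and line 15 without line 23, the lowest ratios belonged to Gypsy LTRs. Gypsy-72_PTr-LTR on chromosome 1 (40835193 to 40835830) had depths of 280 in WT and 60 in line 15, a ratio of -2.22. A chromosome 11 copy of the same name (11626981 to 11627318) had 434 and 130, and its split-read value, 368, was the highest of the WT list against 46 in line 15. POPGY2_LTR on chromosome 2 (18666790 to 18666931) had 24 and 8. The first and second of these share 1 family name, the most frequent one in both lists.

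The highest ratios of that set were below 2-fold. POPGY1_I-int on chromosome 11 (9760359 to 9760747) had depths of 82 in WT and 148 in line 15. A POPGY2_LTR copy on chromosome 2 (18677505 to 18677653), about as short as the one above, had 10 and 18. Copia34-PTR_I-int on chromosome 3 (5805516 to 5805682) had 14 and 22, and its sign turned when depth was divided by the summed listed depth. As deposited, the 2 POPGY2_LTR copies thus lay on opposite sides of WT, at depth values of 24 or less. With the highest locus left out of the summed depth, the ratios of POPGY1_I-int and the second POPGY2_LTR copy also turned below 0. Both POPGY2_LTR copies then lay below WT.

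WT and line 23 without line 15 shared 6 loci. DNA-3-3_PTr on chromosome 16 (4150312 to 4150641) stood highest, with a depth of 94 in WT against 866 in line 23 (ratio 3.20) and a split-read value of 12 against 679. Gypsy-78_PTr-I-int on chromosome 1 (47450642 to 47451752) had depths of 415 and 343, and Ogre-PT3_I-int on chromosome 19 (2956061 to 2956955) had 48 and 29. Only the DNA-3-3_PTr copy was higher in line 23, while the sign at Gypsy-78_PTr-I-int turned when depth was divided by the summed listed depth.

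The other 3 of the 6 were also lower in line 23, among them a second Ogre internal part. Ogre-PT2_I-int on chromosome 11 (12996131 to 12996687) had a depth of 111 in WT against 49 in line 23, and a split-read value of 75 against 6. Helitron-N1_PTr on chromosome 4 (4328049 to 4328178) had 12 and 4, with a split-read value of 8 in both. Copia6-PTR_LTR on chromosome 3 (2840901 to 2841028) had 8 and 4 by depth.

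Between the RNAi lines, 17 loci could be set against each other directly. Line 23 was at least 2-fold lower than line 15 at 7 of them (41.2%) and at least 2-fold higher at 3 (17.6%), with a median log2 ratio of -0.37. The 3 higher ones were the DNA-3-3_PTr copy at 30005278 (4.32), Gypsy21-PTR_I-int (3.99) and the 861 bp Ogre-PT2_I-int locus (2.99). They kept their sign when depth was divided by the summed listed depth, a step that turned the median to 0.80 and the counts to 6 loci at least 2-fold higher in line 23 and 1 lower. It turned 5 of the other signs, those of the DNA-3-3_PTr copy at 24681274, Gypsy-72_PTr-LTR at 38198036, SINE2-2_PTr on chromosome 6, Gypsy-27_PTr-I-int and POPGY1_I-int on chromosome 19. The split-read values were at least 2-fold higher in line 23 at 8 of the 17 loci and at least 2-fold lower at 6.

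The 46 loci of line 15 alone held 25 Gypsy, 12 Copia, 5 DNA transposon and 3 non-LTR loci and 1 satellite. Their median depth value was 25, and 34 of the 46 (73.9%) were in no control-watered list. SAT-1_PT on chromosome 11 (9097155 to 9103437), named as a satellite and also as Gypsy-78_PTr-I-int, had a depth value of 9069 and a split-read value of 6. It was also listed under control watering, at depth values of 6927 in WT and 5202 in line 15. DNA-3-3_PTr on chromosome 6 (10634066 to 10634172) had a depth value of 5202 and a split-read value of 3 after drought. Read as a count, its depth value was 4862 per 100 bp against 144 for SAT-1_PT, so the order of these loci turned with the reading. DNA-3-2_PTr on chromosome 3 (12366569 to 12366821) followed with 336 and 4. The loci ranked first by listed depth in this set therefore had very few split reads.

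LTRs of Gypsy elements came next in listed depth. Gypsy-27_PTr-LTR on chromosome 15 (5951514 to 5952355), which also carries an L1-1_PTr name, had a depth value of 214 and a split-read value of 3. Gypsy-29_PTr-LTR on chromosome 4 (15931405 to 15932394) had 187 and 6. Both were also listed in at least 1 control-watered library.

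Other loci led line 15 alone by split reads. Gypsy-72_PTr-LTR on chromosome 4 (20672764 to 20673242) had a split-read value of 1060 at a depth value of 80, and was in no other library of the series. Copia43-PTR_I-int on chromosome 3 (7814725 to 7815833) had a split-read value of 152 at a depth value of 122. POPGY1_LTR on chromosome 5 (13506586 to 13507971) had 80 at 81. A Gypsy-72_PTr-LTR copy on chromosome 12 (12871435 to 12872019) had a split-read value of 44 at a depth value of 22, and Copia39-PTR_I-int on chromosome 2 (15141914 to 15142069) had 16 at 30. All were LTR retrotransposons, with no DNA-3 locus among them.

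The 21 loci of line 23 alone held 16 Gypsy, 2 DNA transposon, 2 non-LTR loci and 1 Helitron, with no Copia. Their depth values were low, with a median of 14, and 15 of the 21 were below 20. In no control-watered list were 14 (66.7%). In line 23 control there was 1 of them, and in WT control there were 7.

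A run of Gypsy internal parts on chromosome 1 stood out in this set. Gypsy13-PTR_I-int (46570471 to 46571030) had a depth value of 679 and a split-read value of 347. Just downstream lay the Gypsy21-PTR_I-int locus shared with line 15, and then a further Gypsy21-PTR_I-int (46573033 to 46573428) with 19 and 32. The 3 loci spanned 2958 bp and were the only loci of the line 23 list within 10000 bp of each other. Line 15 listed the middle one alone of these and WT none of them. Gypsy13-PTR_I-int was also listed under control watering, at 51 in WT and 86 in line 23.

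Other deep loci of line 23 alone were Gypsy elements too. A second Gypsy-27_PTr-I-int locus (chromosome 16, 8464840 to 8466870) had a depth value of 187 and a split-read value of 4, and Gypsy13-PTR_I-int on chromosome 19 (5462326 to 5463127) had 100 and 5. Gypsy-71_PTr-LTR on chromosome 1 (34470092 to 34470287) had 28 and 6, and Gypsy23-PTR_I-int on chromosome 1 (44974374 to 44975801) had 27 and 7. Each of these was listed in WT control and unlisted in WT after drought.

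Other loci of line 23 alone also had more split reads than depth. Gypsy13-PTR_I-int on chromosome 13 (5583629 to 5584073) had a split-read value of 18 at a depth value of 12. Harbinger1_PTr on chromosome 3 (1199214 to 1199348), of a superfamily of cut-and-paste transposons, had 8 at 4. Both values of the latter are near the lowest listed.

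The 83 loci of WT alone held 47 Gypsy, 17 Copia, 9 DNA transposon and 5 non-LTR loci and 5 Helitrons. Their median depth value was 17, and 48 of the 83 were below 20. L1-1_PTr on chromosome 19 (6567231 to 6568126), a LINE that also carries Gypsy LTR names, had the highest depth value, 535, with a split-read value of 11. Gypsy-28_PTr-I-int on chromosome 18 (7338699 to 7339639) had 240 and 23, and a Gypsy-72_PTr-LTR copy (chromosome 14, 2318528 to 2319031) had 200 and 6. The first and second of these were also in WT control and in neither RNAi line under control watering.

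Gypsy10-PTR_LTR on chromosome 12 (7546658 to 7546828) was high on both measures in WT alone, with a depth value of 196 and a split-read value of 126. DNA-3-2B_PTr on chromosome 6 (4752654 to 4752834) had 154 and 12. It was listed in all 3 control-watered libraries, at 146 in WT, 46 in line 15 and 40 in line 23, so it was missing from the RNAi lists after drought only.

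By split reads, Gypsy-71_PTr-LTR on chromosome 8 (400236 to 400355) had 111 at a depth value of 104, and Gypsy13-PTR_I-int on chromosome 16 (11058542 to 11059222) had 74 at 78. Copia1-PTR_I-int on chromosome 3 (5805909 to 5808494) had 50 at 133. Gypsy-28_PTr-LTR on chromosome 2 (18151906 to 18152070) had 47 at 5. The Copia1-PTR_I-int locus lay beside the Copia34-PTR_I-int locus that WT shared with line 15, within a stretch of 2979 bp.

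The number of DNA-3 loci was 5 in each drought list, which was 4.35%, 6.33% and 11.4% of the lists. The subfamilies, taken from the first name, differed. In WT they were 3 DNA-3-1_PTr, 1 DNA-3-2B_PTr and 1 DNA-3-3_PTr. Line 15 had 4 DNA-3-3_PTr and 1 DNA-3-2_PTr, and line 23 had 4 DNA-3-3_PTr and 1 DNA-3-2B_PTr. Of the DNA-3-3_PTr loci, 3 were the same positions in both lines. Some DNA-3 loci also carry the name of another subfamily, such as the DNA-3-2_PTr locus of line 15, also named DNA-3-3_PTr. Depth ranged from 10 to 154 in the WT list, 46 to 6033 in that of line 15 and 20 to 1577 in that of line 23. DNA-3 loci held 1.46%, 0.908% and 64.5% of the summed split reads. A high DNA-3 share of split reads was thus seen in line 23 and not in line 15, where DNA-3 depth was highest. The chromosome 3 DNA-3-3_PTr copy alone held 50.8% of the line 23 sum. In that list the DNA-3-3_PTr copy at 24681274 and DNA-3-2B_PTr had split-read values of only 6.

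LTR retrotransposons are listed either by their LTR, the repeat at each end, or by their internal part, and the LTR share was lowest in line 23. The first name was an LTR at 58 of 115 loci in WT (50.4%, exact 95% Clopper-Pearson interval 41.0 to 59.9), 35 of 79 in line 15 (44.3%, 33.1 to 55.9) and 11 of 44 in line 23 (25%, 13.2 to 40.3). The interval of line 23 overlapped that of line 15 and ended just below that of WT. Internal parts made up 25.2%, 30.4% and 40.9% in the same order. Among Gypsy loci alone, LTRs were 41 of 66 in WT (62.1%, 49.3 to 73.8), 27 of 44 in line 15 (61.4%, 45.5 to 75.6) and 9 of 27 in line 23 (33.3%, 16.5 to 54.0). The intervals of the Gypsy share itself overlapped, at 57.4% for WT (47.8 to 66.6), 55.7% for line 15 (44.1 to 66.9) and 61.4% for line 23 (45.5 to 75.6). The LTR and internal shares were chosen as measures after values were seen, and all these intervals cover counting error only.

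**Figure D4:**
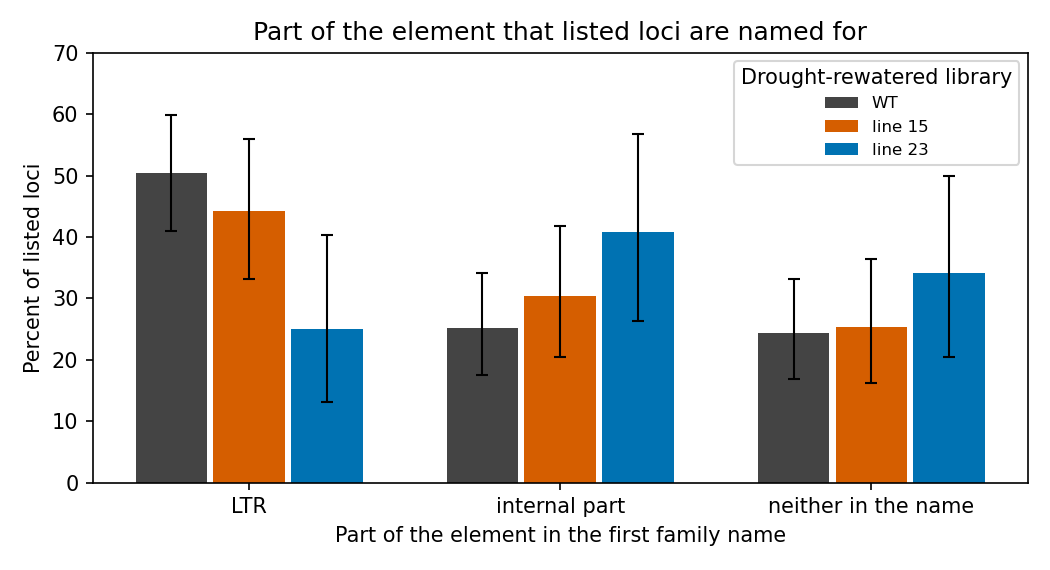
Percent of listed loci (y axis) whose first family name is an LTR, an internal part or neither (x axis), for each drought-rewatered library. Bars are shares and error bars are exact 95% Clopper-Pearson intervals over loci. LTR names made up 50.4% of loci in WT and 25% in line 23, and internal parts 25.2% and 40.9%.

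Single families followed that pattern to different degrees. Gypsy-72_PTr-LTR, the most frequent first name, was at 11, 10 and 1 loci. POPGY2_LTR was at 4, 4 and 0 loci, and Copia-56_PTr-LTR at 5, 4 and 0. In the other direction, Gypsy-27_PTr-I-int was at 1, 1 and 4 loci. Ogre-PT2_I-int was at 4, 3 and 3 loci. The lists these counts come from held 115, 79 and 44 loci, so similar counts are not similar shares. These families were singled out after their counts were seen.

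Split reads were distributed unevenly between the lists. Their sums were 2529, 2423 and 9214, so that of line 23 was 3.64 times that of WT although it listed the fewest loci. The medians per locus were 8, 6 and 6. In line 23, 6 loci with a split-read value of at least 100 held 96.3% of the sum. They were the DNA-3-3_PTr copies on chromosomes 3, 16 and 1 (4681, 679 and 568), Ogre-PT2_I-int (2110), Ogre-PT3_LTR (486) and Gypsy13-PTR_I-int (347). Without those 6, and without the 6 highest loci of WT, line 23 was 0.239 times WT.

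Split-read values of at least 100 were found at 5 loci in WT, with 39.5% of the sum, and at 4 in line 15, with 61.7%. The Ogre-PT2_I-int locus at 41624029 was the one locus past 100 in all 3 lists. More split reads than depth were listed at 8 WT loci (6.96%), 11 line 15 loci (13.9%) and 8 line 23 loci (18.2%). The median fraction of a locus covered by split reads was 0.470, 0.468 and 0.366, while the fraction covered by depth had medians of 0.934, 0.943 and 0.935.

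**Figure D5:**
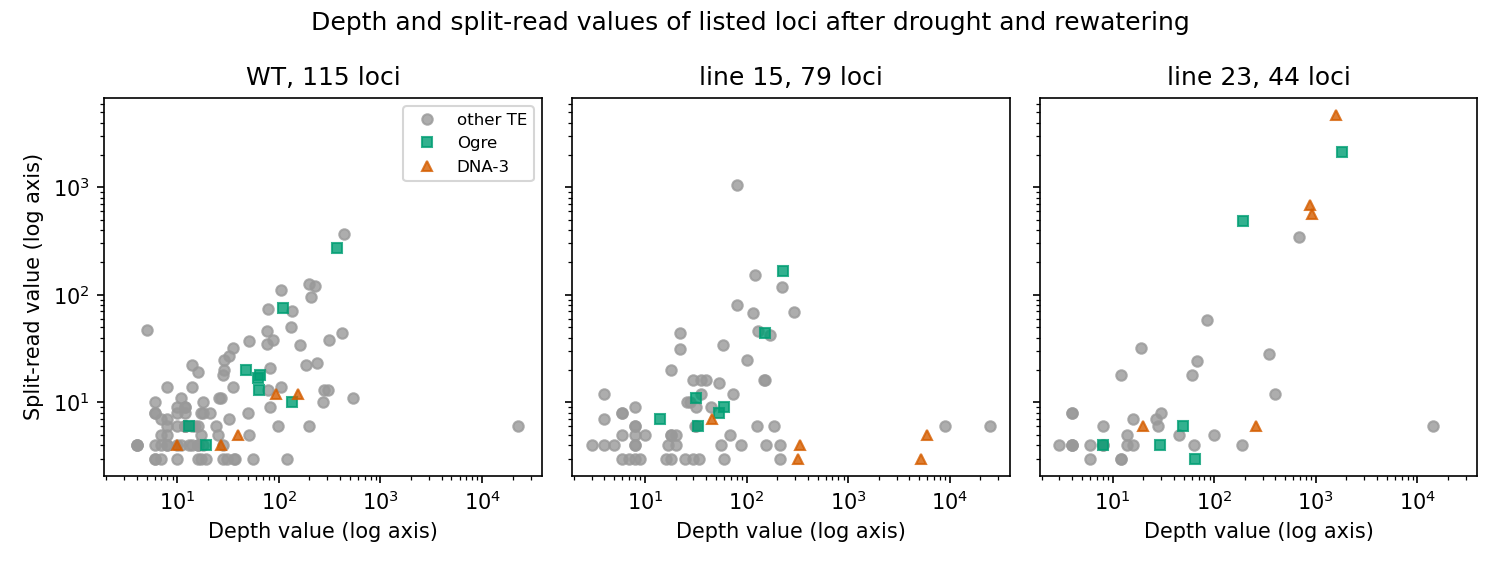
Split-read value (y axis, log scale) against depth value (x axis, log scale) of each listed locus in WT, line 15 and line 23 after drought and rewatering, with DNA-3 and Ogre loci marked. In line 15 DNA-3 loci reach a depth value of 6033 with split-read values of 7 or less, and in line 23 the same group reaches a split-read value of 4681.

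Median locus lengths were 229, 260 and 308.5 bp. Chromosome 1 held 23 of 115 loci in WT (20%, exact 95% interval 13.1 to 28.5), 11 of 79 in line 15 (13.9%, 7.16 to 23.5) and 15 of 44 in line 23 (34.1%, 20.5 to 49.9). Line 15 was below WT and line 23 above it, and the intervals of WT and line 23 overlapped.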

How the data were processed

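DNA outside the chromosomes was amplified from CTAB extracts and sequenced as Nextera XT libraries on a MiSeq (2 reads of 250 bp per fragment), per the labels' protocols. The submitters' processing notes name Bowtie2. No source used here names the build, the counting tool or the listing filters. The authors' tables hold 2 coverage signals per locus, depth (DOC) and split reads (SR), as unscaled whole numbers per the file headers and values. The covered part is deposited as a fraction of locus length, headed as a percent. Each sheet was assigned to the sample with its name as title.

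Loci were matched by identical chromosome, start and end. TE class came from the first family name. Of the 189 loci, 106 carried several names and 13 names of several classes. With 1 library per group there was no test. Numbers have exact Poisson intervals, their ratios exact binomial-based intervals, and shares exact Clopper-Pearson intervals, all at 95% and for counting error only, because amplification copies molecules. Log2 ratios are of depth values at loci listed in both libraries, with no pseudocount. A 2-fold difference was the fixed rule of size. Named loci are those of both RNAi lines, the 5 highest by depth and by split reads of each single list, and the 3 highest and lowest ratios of loci shared by WT and 1 line, 56 in all. The members and lists were chosen with earlier results of these data known. Class shares were also taken by length and over loci with names of 1 class. Other alternatives were depth of at least 20, split reads of at least 10, merging within 1000 bp, overlap of 1 bp, other scalings, split reads for depth, and a fold of 4. The matching and ratio code was tested on simulated lists. Python 3.11.15, pandas 2.3.3 and SciPy 1.17.1 were used.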

Additional observations from a re-analysis of the deposited data

Results flagged for a closer look

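For 5 measures, both RNAi lines lay on one side of WT after drought and rewatering and on the other side under control watering. Other measures set side by side did not do so, among them the Gypsy, Copia and DNA transposon shares and the number of listed loci. How many measures would do so with no difference between genotypes was not tested. Some gaps were small, such as the non-LTR share under control watering, 12.8% in WT and 12.4% in line 15. Beside the values of each line, the mean difference over the 2 lines is given only as the measure that picked these results out. It describes neither line, and no difference was tested.

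The share of loci named first as LTR was 50.4% in the WT list after drought, against 44.3% (line 15) and 25% (line 23), a mean difference of -15.8 percentage points. Under control watering WT had 33.6% and each RNAi line 36.7%, a mean difference of 3.13. The Helitron share after drought was 5.22% for WT, 0% for line 15 and 4.55% for line 23 (mean difference -2.94), and under control watering 2.68%, 4.73% and 4.59% (1.98).

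The non-LTR share after drought was 9.57% for WT and 11.4% for each line (mean difference 1.81), and under control watering 12.8%, 12.4% and 11.01% (-1.03). Both lines no longer lay above WT after drought when loci had a depth value of at least 20, with 11.7%, 13.2% and 8.33%, or when loci were weighted by length, with 6.13%, 5.52% and 5.02%. The median depth value after drought was 25 for WT, 33 for line 15 and 27.5 for line 23 (mean difference 5.25), and under control watering 36, 30 and 28 (-7.00). The median locus length after drought was 229 bp for WT, 260 bp for line 15 and 308.5 bp for line 23 (mean difference 55.25 bp), and under control watering 389, 256 and 280 bp (-121 bp).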

How the results depend on the processing

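The limits are those of 1 library per group, unknown sequencing depth and an unstated listing rule. Of 106 alternative values, 76 stayed within their interval or within 1.5 times. With a depth value of at least 20, WT listed 60 loci and line 23 listed 24. With a split-read value of at least 10, the lists held 49 loci for WT, 27 for line 15 and 13 for line 23. The ratios of the RNAi lines to WT, added after seeing the data, stayed within their intervals under these settings and with loci within 1000 bp merged. Sets did not change with overlap of 1 bp in place of identical coordinates. With depth at least 20, line 15 alone had 27 loci, line 23 alone 6 and WT alone 36.

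Weighted by length, the Gypsy shares of WT, line 15 and line 23 were 73.7%, 67.5% and 85.3%, the DNA transposon share 3.97%, 5.14% and 6.42%, and the Copia share of line 15 7.61%. With depth at least 20, the Copia share of WT was 10% and the Helitron share of line 23 was 0%. The median ratio of line 15 to WT was -1.01 with depth divided by the summed listed depth and -2.01 without the highest locus in that sum. Loci at least 2-fold higher in line 15 numbered 0 on that division, 3 by split reads and 0 at a fold of 4. Loci at least 2-fold lower numbered 13 on that division and 1 at a fold of 4 in line 15, and 2 at a fold of 4 in line 23.

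The following alternatives were chosen after seeing the data. With depth at least 20, the LTR-named shares of WT, line 15 and line 23 were 41.7%, 43.4% and 16.7%, so line 15 was no longer below WT. Without each library's highest locus, the ratio of summed split reads to WT was 0.631 in line 15 and 2.10 in line 23. Without the 6 highest it was 0.543 in line 15 and reversed to 0.239 in line 23, and by the median per locus it reversed to 0.750 in line 23. The cause was not tested. No paired analysis was possible because the 3 drought groups have 1 library each and so share a single replicate number. A fit over both waterings was not run.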

Other observations

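The less frequent TE groups were listed at few loci. LINE loci numbered 8, 5 and 1 in WT, line 15 and line 23, which was 6.96%, 6.33% and 2.27% of the lists. L1-2_PTr supplied 5, 3 and 0 of them. WT and line 15 shared 3 LINE loci that line 23 did not list, and their depth values as deposited were close. Examples were 134 and 115 at L1-1_PTr on chromosome 7 and 82 and 74 at L1-2_PTr on chromosome 8. SINE loci numbered 3, 4 and 4 (2.61%, 5.06% and 9.09% of the lists), and 2 of them, both SINE2-2_PTr, were in all 3 lists.

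Among the drought lists, Harbinger1_PTr was in those of the RNAi lines only, at 2 loci in line 15 (depth values 17 and 8) and 1 in line 23 (4), with no position in common. CACTA loci numbered 6, 3 and 2, and 5 of those in WT were in WT alone, at depth values of 29 or less. No list held a locus with an hAT first name, a count of 0 in each. As a further name, hAT-5_PTr was carried by Gypsy-72_PTr-LTR loci on chromosomes 2 and 19. Among the drought lists, 1 satellite was listed, in line 15. Helitrons numbered 6 in WT, 0 in line 15 (exact 95% interval of the share 0 to 4.56%) and 2 in line 23. The depth values of the Helitrons were between 4 and 31. These counts were not tested, and an unlisted locus has no value.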
